A study of Mus musculus with 6 samples.

Results

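The genes described here are those that make, elongate, desaturate and activate fatty acids. They comprise 36 genes, listed by name for their function, out of 22609 gene rows: the transcription factors SREBP1 (Srebf1) and ChREBP (Mlxipl) with its partner Mlx, the lipogenic enzymes, the desaturases, the elongases and the acyl-CoA synthetases. Each has a row in the files. Hacd1 stands there under its older symbol Ptpla. RNA was sequenced from primary hepatocytes of male wild-type C57BL/6 mice aged 4 months. The cells were exposed for 16 h either to 20 µg/mL LRG1 protein (3 samples) or to PBS (3 samples). Both groups were cultured cells with no other treatment named in the labels. The secreted glycoprotein LRG1 (leucine-rich alpha-2-glycoprotein 1) is linked to fatty liver in obesity by the series title, and the comparison asks how hepatocyte transcripts differ after exposure to it. Whether the 3 samples of a treatment were separate mice, separate cultures or neither is not stated, so the p-values reflect only how far these samples scatter, and that scatter may be technical.

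Hepatocytes build fatty acids from acetyl-CoA. ATP citrate lyase and acyl-CoA synthetases of short chains supply the acetyl-CoA, acetyl-CoA carboxylase turns it into malonyl-CoA, and fatty acid synthase joins the units into palmitate with NADPH as reductant. Elongases and desaturases then lengthen and unsaturate the chain in the endoplasmic reticulum, and acyl-CoA synthetases attach coenzyme A to a fatty acid so that it can enter triglyceride, phospholipid or oxidation. In the liver SREBP1 drives many of the genes of fatty acid synthesis in response to insulin, and ChREBP in response to glucose.

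The libraries held 18625748 to 23036332 counts in genes. Correlations of log2 CPM were 0.995 to 0.996 within a treatment and 0.958 to 0.962 between treatments, so no library stood apart from its group. Levels are given as CPM, a gene's counts per 1000000 counts in tested genes, with the trimmed-mean (TMM) library factors of edgeR. Albumin (Alb), a hepatocyte marker, had a mean of 18555 CPM with LRG1 and 19235 CPM with PBS. Of 6 hepatocyte markers 3 were lower and 3, Alb among them, did not pass. By the same rule, given below, 25.8% of all tested genes were lower and 25.5% higher. Tat had 1.19 CPM with LRG1 and 9.20 CPM with PBS, Apoa1 was 1.54-fold lower and Hnf4a 1.23-fold lower. The summed level of 8 stellate cell and fibroblast markers was 23.4 to 26.6 CPM in LRG1 libraries and 25.2 to 31.7 CPM in PBS libraries. Of the 6 tested 1 (Reln) was lower. Lrat (1 count with LRG1, 20 counts with PBS) and Lum (15 counts with LRG1, 21 counts with PBS) were not tested. The summed level of 6 endothelial markers was 31.9 to 36.4 CPM with LRG1 and 38.4 to 40.8 CPM with PBS. Of the 5 tested 2 (Stab2 and Lyve1) were lower. The 6 Kupffer cell and macrophage markers summed to 179 to 204 CPM with LRG1 and 217 to 262 CPM with PBS, most of it from Cd68. Of these, Cd68 was 1.28-fold lower, Marco was 1.63-fold higher (128 counts with LRG1 and 71 counts with PBS in all), and Adgre1, Csf1r, Ptprc and Clec4f did not pass, with a median log2 fold change of 0.38 over the 6. The 4 adipocyte markers summed to 8.51 to 10.6 CPM with LRG1 and 9.32 to 11.9 CPM with PBS, nearly all from Cidec, and Lep had no count in any library. The 5 cholangiocyte markers summed to 4325 to 4643 CPM with LRG1 and 4446 to 4630 CPM with PBS, most of it from Spp1, which did not pass. Krt19 was lower, at 3.24 CPM with LRG1 and 18.4 CPM with PBS, and Sox9 was higher, at 84.3 CPM with LRG1 and 52.6 CPM with PBS. Krt7 (25 counts with LRG1, 9 counts with PBS) and Epcam (48 counts with LRG1, 22 counts with PBS) were not tested. The part of other cell types in the results below was not tested, and in bulk RNA fewer cells of a type and less RNA per cell cannot be told apart.

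Most genes of fatty acid synthesis were lower with LRG1. Of the 36, 32 had enough counts to be tested. A gene was called at an adjusted p under 0.05 in edgeR's quasi-likelihood test, with adjustment over all 12301 tested genes. By that rule 27 members (84.4% of those tested) were lower, 2 were higher and 3 did not pass. Among all tested genes 51.4% were called, 25.8% lower and 25.5% higher. The median log2 fold change of the tested members was -0.51, against 0.0093 for all tested genes. One tested member, Acss3, reached the count minimum only through its PBS libraries, and without it 26 of 31 were lower, with a median of -0.45. The differences of 11 members were at least 2-fold and lower, where 5.43% of all tested genes met that rule. No member was at least 2-fold higher, where 4.07% of all genes were. The members were chosen with earlier results of these data known, so these shares may partly reflect that choice. Of 15 tested genes in a list of related genes given below, 3 were higher and 8 lower. They include Acsbg1 (21.1-fold higher), Slc27a1 (2.65-fold higher) and Slc27a2 (4.41-fold lower). In 27 members every LRG1 library lay below every PBS library, a pattern found in 28.6% of tested genes. In 3 members every LRG1 library lay above every PBS library, found in 29.0% of tested genes.

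**Figure D1:**
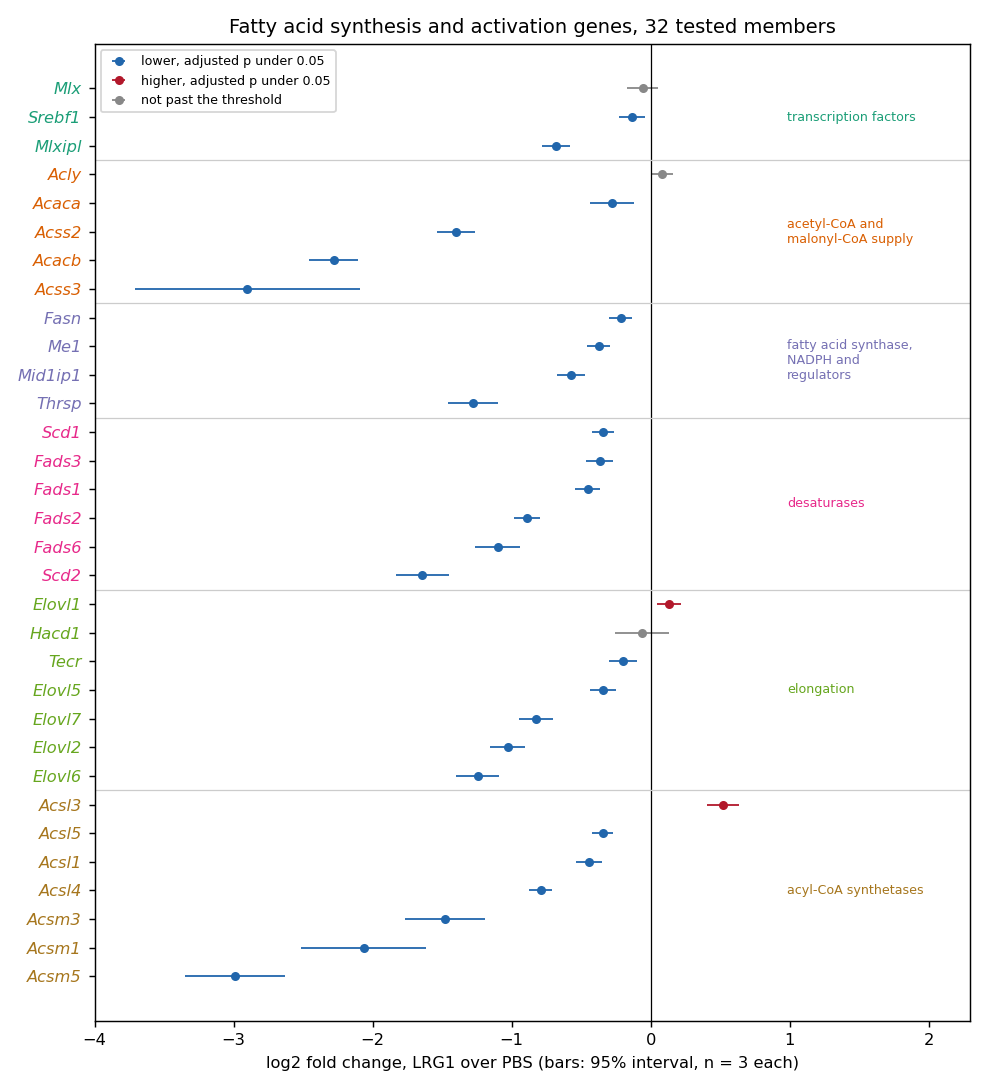
Log2 fold change, LRG1 over PBS, of the 32 tested genes grouped and with gene names coloured by role, points coloured by call and 95% intervals as bars (n = 3 libraries per group). Of these, 27 lie to the left of 0 and past the threshold, Elovl1 and Acsl3 lie to the right and past it, and Mlx, Acly and Hacd1 did not pass.

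Together the 36 genes took up 5486 to 5731 CPM in LRG1 libraries and 7149 to 7403 CPM in PBS libraries. Scd1 alone made 47.0 to 47.2% of that sum with LRG1 and 45.4 to 46.5% with PBS. Without Scd1 the sum was 2910 to 3038 CPM with LRG1 and 3903 to 3985 CPM with PBS. The sum was therefore lower in each LRG1 library than in any PBS library with or without its most abundant transcript. Across the 32 tested members the genes with the lower level per kilobase of exon in PBS libraries had the more negative log2 fold changes (Spearman's rho 0.55, n = 32 genes). These genes share the same 6 libraries, and the same coefficient over 12176 tested genes with a known length was -0.091. The coefficient depends in part on the count filter. Acss3, the tested member with the lowest such level (0.212 CPM per kilobase), passed it only through its PBS libraries, and no coefficient without it was computed. The untested members are absent from it. With no filter their log2 fold changes were 1.60 (Acsl6), 0.94 (Elovl4), -0.44 (Elovl3) and -1.93 (Acss1).

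**Figure D2:**
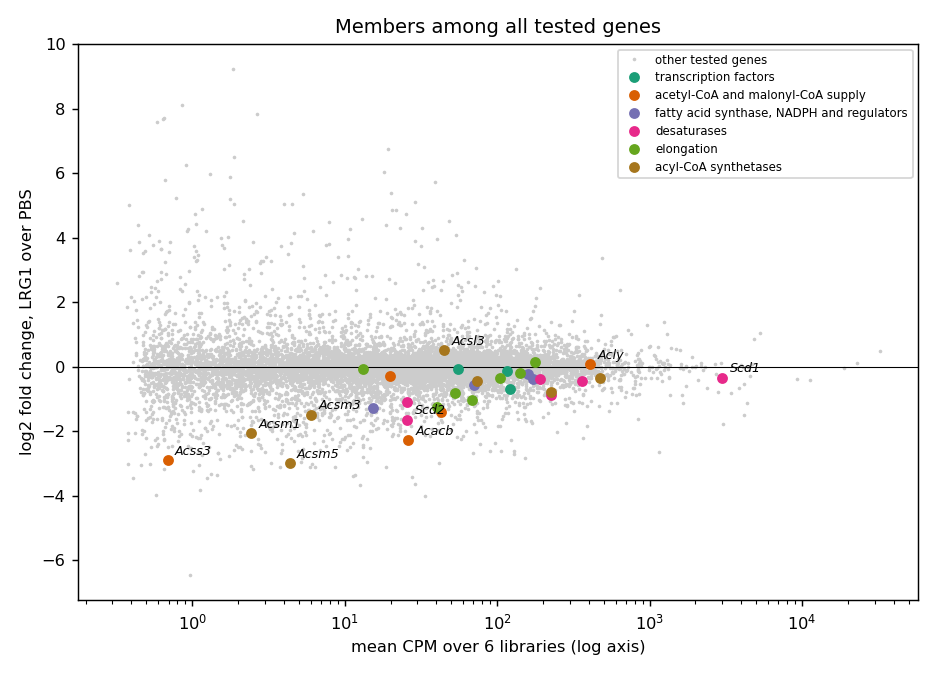
Log2 fold change, LRG1 over PBS, against mean CPM over the 6 libraries (log axis) for the 32 tested members, coloured by role, and for the other tested genes (grey). Scd1 is the member furthest to the right, at a log2 fold change of -0.35, and the members below -2 (Acsm5, Acss3, Acacb and Acsm1) have low to moderate CPM.

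The transcription factor genes differed unequally. Mlxipl, which encodes ChREBP, had 93.8, 91.6 and 93.9 CPM in the LRG1 libraries, against 160.1, 136 and 151 CPM in the PBS libraries. The LRG1 values lay close together and below each PBS value (log2 fold change -0.68, SE 0.050, adjusted p = 4.19e-11). Srebf1, which encodes SREBP1, had 115, 113 and 104 CPM with LRG1 and 119, 119 and 126 CPM with PBS. The groups did not overlap, but the gap was narrow (log2 fold change -0.13, SE 0.046, adjusted p = 0.0178), and the call was lost without LRG1 replicate 3 (-0.089, adjusted p = 0.132) or without PBS replicate 3 (-0.11, adjusted p = 0.0884). The adjusted p of Srebf1 ran from 0.00119 to 0.132 over all alternatives. Its exons share 2.54% of their length with Rai1 on the opposite strand, which was 1.37-fold higher with LRG1. Mlx, the partner with which ChREBP binds DNA, had 54.8, 54.2 and 53.3 CPM with LRG1 and 55.3, 59.8 and 54.0 CPM with PBS. The groups overlapped (95% interval of the log2 fold change -0.17 to 0.050, adjusted p = 0.375). Of its exon length, 19.4% overlaps Psmc3ip on the opposite strand, which had 0.780 CPM with LRG1 and 0.782 CPM with PBS.

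The promoter of Mlxipl is shown because it is one of 2 members with a match to the sterol regulatory element motif, TCACNCCAC, a sequence that SREBP proteins bind. Only 31 of the 36 members had a promoter entry. Scd1, Scd2, Fads1, Elovl3 and Acss3 had none and were not searched. RefSeq gives Mlxipl more than 1 start. The 250 bases before the start with the match lie at chr5:135106641-135106890 (GRCm38.p6, plus strand), and capitals mark the match, which ends 128 bases before the start.
Mlxipl: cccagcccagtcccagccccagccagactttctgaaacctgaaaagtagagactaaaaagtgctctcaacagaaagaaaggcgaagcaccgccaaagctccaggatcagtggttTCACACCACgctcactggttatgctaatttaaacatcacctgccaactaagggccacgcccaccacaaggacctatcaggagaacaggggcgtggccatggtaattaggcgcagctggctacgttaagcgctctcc

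The genes that supply acetyl-CoA and malonyl-CoA differed widely among themselves. Of 5 tested, 4 were lower, where 25.8% of all tested genes were. Log2 fold changes ran from -2.90 for Acss3 to 0.083 for Acly. Acss3, 1 of the 4, reached the count minimum only through its PBS libraries, so its lower call partly follows from the filter. Without it the range began at -2.28 for Acacb. Acly, ATP citrate lyase, which makes acetyl-CoA from citrate, had 420.3, 435 and 410.2 CPM with LRG1, against 397, 395 and 401 CPM with PBS. Each LRG1 library was above each PBS library, but the difference did not pass (log2 fold change 0.083, SE 0.037, adjusted p = 0.0651). It passed at 0.0254 with libraries scaled by total gene counts and at 0.0462 when LRG1 replicate 3 was left out, within a range of 0.0254 to 0.266 over all alternatives. Acss2, the cytosolic acetyl-CoA synthetase that uses acetate, had 24.1, 24.1 and 21.8 CPM with LRG1 and 58.3, 59.7 and 67.5 CPM with PBS. It was 2.64-fold lower with no overlap between groups (log2 fold change -1.40, SE 0.066, adjusted p = 1.39e-14). Its overlap with exons of Gss on the opposite strand is 0.340% of its length, and Gss was itself 1.97-fold lower. A further 3.98% overlaps an antisense transcript that had 1 count in all libraries together.

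The acetyl-CoA carboxylases also parted. Acaca, the cytosolic form that feeds fatty acid synthase, had 17.7, 18.5 and 17.7 CPM with LRG1 and 23.3, 20.5 and 21.7 CPM with PBS, a 1.21-fold lower level (log2 fold change -0.28, SE 0.076, adjusted p = 0.00374). Acacb, the form at the mitochondrial membrane whose malonyl-CoA restrains fatty acid import into mitochondria, had 10.6, 8.20 and 8.01 CPM with LRG1 and 44.8, 42.9 and 42.0 CPM with PBS. It was 4.86-fold lower (log2 fold change -2.28, SE 0.085, adjusted p = 2.11e-16), and its highest LRG1 library, replicate 1, was far below the lowest PBS library. Acss3, a mitochondrial synthetase of short-chain acyl-CoA, was scarce, with 4, 3 and 3 counts in LRG1 libraries and 28, 19 and 23 counts in PBS libraries (log2 fold change -2.90, SE 0.39, adjusted p = 1.24e-06). Its exons overlap Ppfia2 on the opposite strand, which had no counts in any library. Acss1, the mitochondrial acetyl-CoA synthetase, had no count with LRG1 and 1 count with PBS and was not tested.

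Fatty acid synthase and the genes around it were all lower, where 25.8% of tested genes were. The folds were larger for both regulators than for both enzymes. Fasn had 147, 152 and 143 CPM with LRG1 and 173, 164 and 175 CPM with PBS, without overlap (log2 fold change -0.21, SE 0.041, adjusted p = 0.000102). Me1, the malic enzyme that provides NADPH in the cytosol, had 148, 147 and 153 CPM with LRG1 and 199.9, 188 and 192 CPM with PBS (log2 fold change -0.37). The folds were 1.16 for Fasn and 1.30 for Me1, both lower with LRG1. Thrsp, also known as Spot 14, a nuclear and cytosolic protein of lipogenic tissues, had 9.61, 8.46 and 8.77 CPM with LRG1 and 21.1, 22.4 and 21.7 CPM with PBS, 2.43-fold lower (adjusted p = 1.11e-11). Mid1ip1, a relative of Thrsp that promotes the assembly of acetyl-CoA carboxylase into active polymers, had 54.8, 58.8 and 56.2 CPM with LRG1 and 84.0, 86.2 and 82.6 CPM with PBS, 1.49-fold lower (adjusted p = 4.44e-10). Of the Mid1ip1 exon length, 26.9% overlaps the antisense transcript Gm14493 on the opposite strand. Gm14493 was not counted as a gene, so its part in the Mid1ip1 counts is not known. Neither regulator had an LRG1 library within the PBS range. LRG1 libraries lay wholly below the PBS range in 28.6% of all tested genes.

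The Fasn promoter is shown as that of the central enzyme of the pathway. The 250 bases before its RefSeq start lie at chr11:120824548-120824797 (GRCm38.p6, minus strand) and hold 3 matches to CCAAT, the motif of NF-Y, counted on both strands, with the last 2 overlapping. Capitals mark the matches, which lie between 90 and 55 bases before the start. No match to the sterol regulatory motif TCACNCCAC or to the E-box CACGTG was in the window. Sites that differ from these sequences were not searched.
Fasn: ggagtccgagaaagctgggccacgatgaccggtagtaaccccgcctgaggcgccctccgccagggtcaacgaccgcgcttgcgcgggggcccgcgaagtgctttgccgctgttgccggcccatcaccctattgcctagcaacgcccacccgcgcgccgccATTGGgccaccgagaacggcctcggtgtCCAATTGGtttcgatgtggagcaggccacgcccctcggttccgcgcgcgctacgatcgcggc

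All 6 desaturase genes were lower, where 25.8% of tested genes were. Scd1, the stearoyl-CoA desaturase that makes oleate, is the most abundant member, also per length, at 549 CPM per kilobase with LRG1 and 697 CPM per kilobase with PBS. It had 2682, 2693 and 2576 CPM with LRG1 and 3438, 3246 and 3417 CPM with PBS (log2 fold change -0.35, SE 0.038, adjusted p = 6.11e-08). Its paralog Scd2 was far scarcer, with 11.7, 14.1 and 11.6 CPM with LRG1 and 41.5, 33.6 and 42.2 CPM with PBS, a 3.12-fold lower level (adjusted p = 3.23e-13). Scd1 was 1.27-fold lower, so the scarce paralog had the larger fold. Reads that align equally to both paralogs may not have been counted. Fads2 and Fads1 carry out the desaturation steps on the way to arachidonate and docosahexaenoate. Fads2 had 162, 169 and 146 CPM with LRG1 and 297, 289 and 298 CPM with PBS (log2 fold change -0.89, SE 0.046, adjusted p = 7.06e-14). Fads1 had 314, 319 and 285 CPM with LRG1 and 426, 409.8 and 422 CPM with PBS (log2 fold change -0.45, SE 0.042, adjusted p = 3.14e-09). Both were lower in every LRG1 library than in any PBS library, as were 28.6% of all tested genes. Fads3 and Fads6, members of the same family, had log2 fold changes of -0.37 and -1.10. Fads3 averaged 167 ± 8.05 CPM with LRG1 and 215 ± 13.2 CPM with PBS (SD, n = 3 each). Fads6 averaged 16.5 ± 2.02 CPM with LRG1 and 35.2 ± 1.06 CPM with PBS (SD, n = 3 each).

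**Figure D3:**
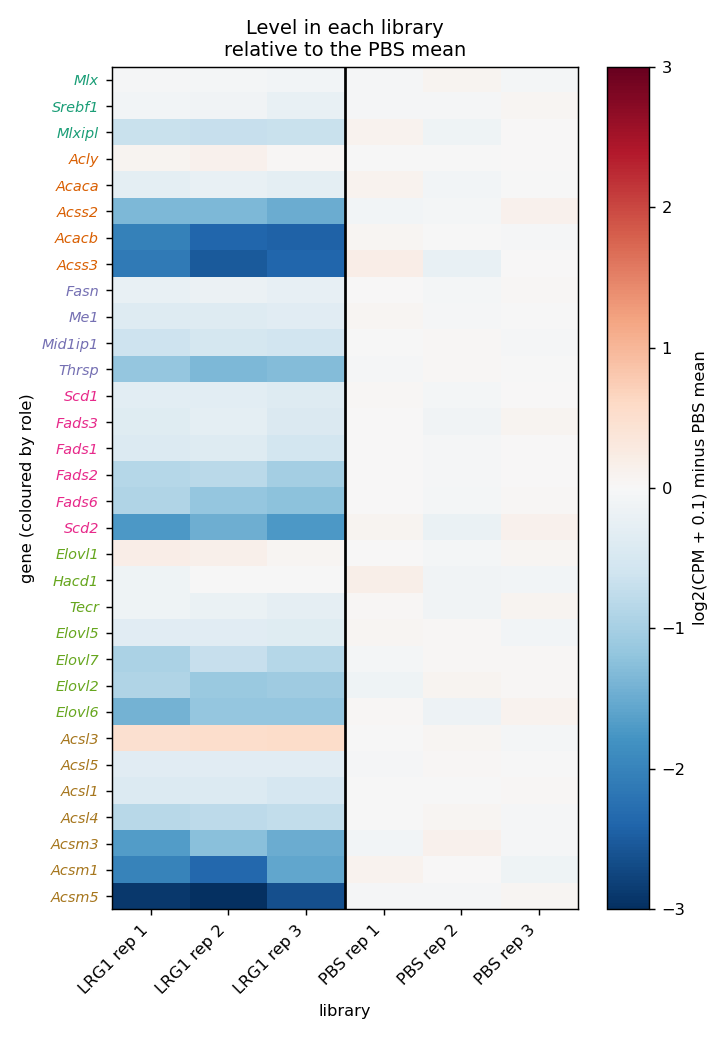
Level of the 32 tested genes in each of the 6 libraries, as log2(CPM + 0.1) minus the mean of the PBS libraries, with gene names coloured by role. The LRG1 columns are blue (lower) in most rows, Acsl3, Elovl1 and, more faintly, Acly are red (higher), and the 3 libraries of a treatment are alike.

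Of 9 genes of elongation, 7 were tested, 5 of them lower with LRG1, 1 higher (Elovl1) and 1 without a call (Hacd1). Over all tested genes the shares were 25.8% lower and 25.5% higher. Elovl6, which extends palmitate to stearate, had 21.3, 25.3 and 25.4 CPM with LRG1 and 58.6, 51.3 and 61.2 CPM with PBS, 2.37-fold lower (log2 fold change -1.25, SE 0.073, adjusted p = 8.46e-13). Elovl2, an elongase of long polyunsaturated chains, had 49.5, 42.4 and 43.9 CPM with LRG1 and 84.4, 97.7 and 94.7 CPM with PBS, 2.04-fold lower (adjusted p = 9.77e-13). In both genes the highest LRG1 library lay well under the lowest PBS library. Among all tested genes 28.6% had every LRG1 library below every PBS library. Elovl5, which elongates shorter polyunsaturated chains, was 1.27-fold lower, at 91.7 ± 1.07 CPM with LRG1 and 116 ± 6.21 CPM with PBS (SD, n = 3 each). Elovl7 averaged 38.2 ± 3.35 CPM with LRG1 and 67.9 ± 2.74 CPM with PBS, 1.77-fold lower. Elovl1, the elongase of saturated very long chains found in most tissues, went the other way. It had 192, 186 and 176 CPM with LRG1 and 168, 163 and 174 CPM with PBS (log2 fold change 0.13, SE 0.042, adjusted p = 0.0101). Its call was lost when LRG1 replicate 1 (adjusted p = 0.0731) or PBS replicate 2 (adjusted p = 0.0508) was left out, in a range of 0.000192 to 0.0731 over all alternatives, and 2.73% of its exon length overlaps Cdc20 on the opposite strand.

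The other tested members of the elongation cycle had small differences. Tecr, the reductase of the last step, averaged 131 ± 5.80 CPM with LRG1 and 151 ± 10.5 CPM with PBS (log2 fold change -0.20, SE 0.048, adjusted p = 0.00124). Hacd1, a dehydratase of the third step, had 12.4, 13.3 and 13.4 CPM with LRG1 and 15.2, 12.6 and 12.8 CPM with PBS. Its groups overlapped, its 95% interval ran from -0.26 to 0.14, and the sign of its difference turned without PBS replicate 1 (0.033) and with GC and length trends removed (0.019). Elovl3 had 4, 11 and 2 counts with LRG1 and 8, 9 and 4 with PBS, and Elovl4 had 3, 3 and 7 counts with LRG1 and 3, 1 and 2 with PBS. These low counts were not tested.

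**Figure D4:**
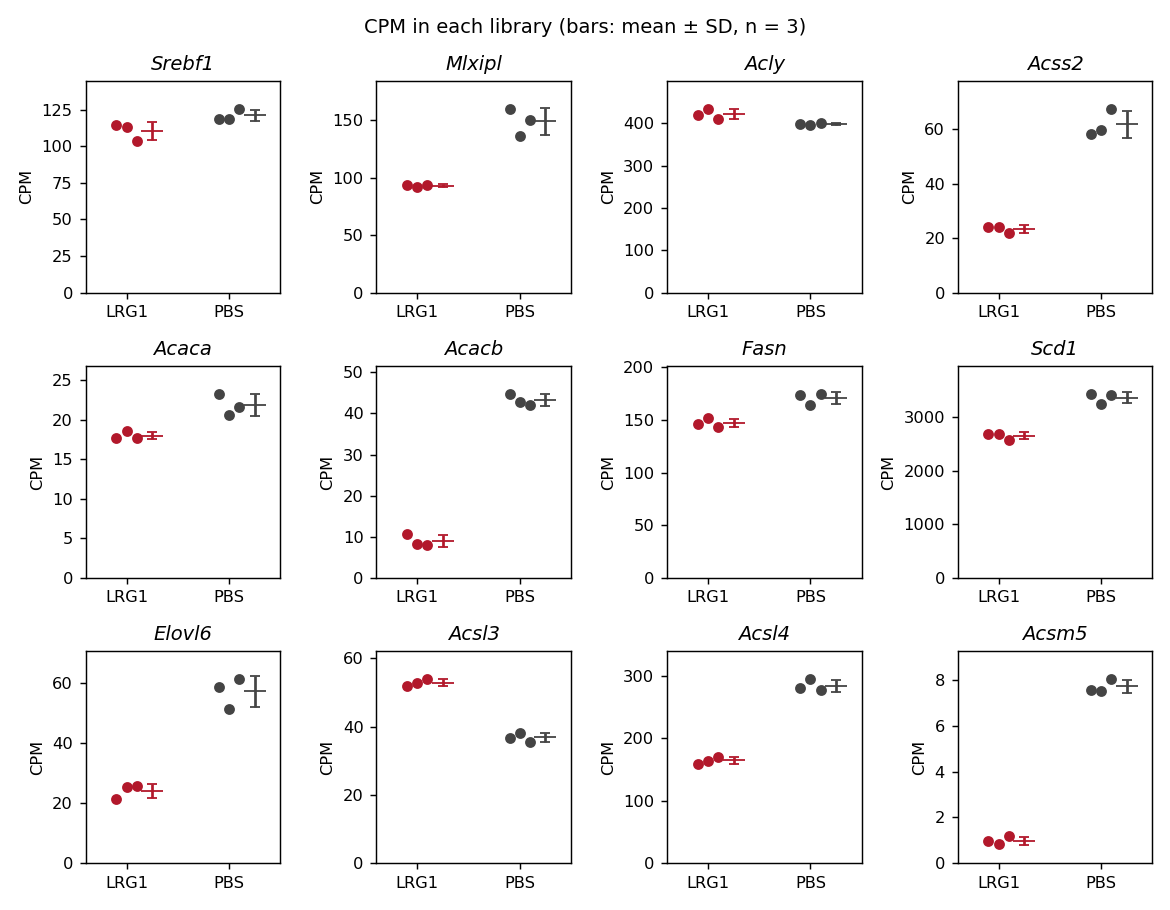
CPM of 12 genes in each LRG1 library (red) and each PBS library (dark grey), with mean ± SD beside the points (n = 3) and each vertical axis starting at 0. The LRG1 and PBS points do not overlap in any panel, Acly and Acsl3 are the panels with LRG1 above PBS, and Acly did not pass the threshold. Of all tested genes, LRG1 libraries lay wholly below in 28.6% and wholly above in 29.0%.

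Of 8 acyl-CoA synthetase genes, 6 were lower and 1, Acsl3, was higher, and 1 was not tested. Over all tested genes 25.8% were lower and 25.5% higher. Acsl5, which of these had the highest level per length (98.5 CPM per kilobase with LRG1, 125 CPM per kilobase with PBS), had 417, 416 and 421 CPM with LRG1 and 520.3, 547 and 524 CPM with PBS (log2 fold change -0.34, SE 0.037, adjusted p = 3.15e-08). Zdhhc6, which overlaps 3.94% of its exon length on the opposite strand, did not pass. Acsl4, which prefers arachidonate, had 159, 164 and 170.2 CPM with LRG1 and 280.3, 295 and 277 CPM with PBS, 1.73-fold lower (adjusted p = 6.94e-14). Acsl1, a major long-chain synthetase of liver and fat, had 63.3, 63.4 and 60.2 CPM with LRG1 and 83.9, 84.2 and 86.2 CPM with PBS, 1.36-fold lower (adjusted p = 2.08e-08). These 3 long-chain synthetases were lower in every LRG1 library than in any PBS library, as were 28.6% of all tested genes. Acsl3, a long-chain synthetase found at the endoplasmic reticulum and on lipid droplets, had 51.9, 52.8 and 54.0 CPM with LRG1 and 36.8, 38.3 and 35.6 CPM with PBS. It was 1.43-fold higher with no overlap (log2 fold change 0.52, SE 0.054, adjusted p = 2.24e-08), and its call held in each alternative, with log2 fold changes of 0.48 to 0.55. It shares 5.22% of its exon length with Utp14b on the same strand, which was 1.23-fold higher.

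The Acsm genes, which encode mitochondrial synthetases for medium-chain acids, had larger folds than the tested Acsl genes. Acsm5 had 0.946, 0.820 and 1.16 CPM with LRG1 and 7.59, 7.55 and 8.07 CPM with PBS, 7.95-fold lower (log2 fold change -2.99, SE 0.17, adjusted p = 7.34e-13). Acsm1 had 18, 16 and 25 counts with LRG1 and 83, 74 and 68 counts with PBS, 4.18-fold lower (adjusted p = 2.52e-08). Acsm3 was 2.79-fold lower at 3.18 ± 0.468 CPM with LRG1 and 8.94 ± 0.721 CPM with PBS (SD, n = 3 each). These 3 genes had lower levels per length than any tested Acsl gene, at no more than 0.767 CPM per kilobase with LRG1 and 2.42 CPM per kilobase with PBS. Acsm3 shares 32.8% of its exon length with Eri2 on the opposite strand, for which the log2 fold change lay between -0.32 and 0.035 (95% interval). Acsl6 had 13, 9 and 12 counts with LRG1 and 2, 4 and 4 counts with PBS. It fell under the count minimum, and with no filter its log2 fold change was 1.60 (SE 0.56, adjusted p = 0.0130). The sum was 34 counts with LRG1 and 10 counts with PBS.

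The promoter of Acsl1 is shown as the other with a match to the sterol regulatory motif, here on the opposite strand. RefSeq lists more than 1 start for Acsl1. The 250 bases before the start concerned lie at chr8:46490716-46490965 (GRCm38.p6, plus strand), and the match, in capitals, ends 68 bases before the start.
Acsl1: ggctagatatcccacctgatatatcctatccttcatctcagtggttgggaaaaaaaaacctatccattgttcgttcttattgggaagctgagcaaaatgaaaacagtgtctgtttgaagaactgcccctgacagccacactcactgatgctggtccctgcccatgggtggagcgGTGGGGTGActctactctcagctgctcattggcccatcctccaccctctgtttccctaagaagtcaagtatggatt

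Among the members with an entry in the RefSeq promoter table (31 of 36, with 40 windows of 250 bases before to 50 after a start), the sterol regulatory motif was found in 2 of 40 windows, against 1.18% of windows of tested genes and 1.24% of all windows in the table. The E-box CACGTG was in 5 of 40 windows of members (12.5%), 1245 of 12454 windows of tested genes and 7.15% of all. CCAAT was in 57.5% of the members' windows, 37.5% of those of tested genes and 37.4% of all. GGGCGG, a motif of SP1, was in 60.0% of the members' windows, 62.1% of those of tested genes and 35.7% of all. Both strands were searched, and the motifs were counted separately, so matches may overlap. A match is a description of the sequence, not evidence of binding, and a missing match does not show that a site is absent.

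Ratios of related genes within a library need no scaling between libraries, and 7 such pairs were compared. The ratio of Acacb to Acaca counts was 0.493 on average with LRG1 and 1.98 with PBS, 4.02-fold apart. On the log2 scale it was -0.75, -1.17 and -1.14 in the LRG1 libraries, against 0.94, 1.06 and 0.96 in the PBS libraries. The mitochondrial form thus had more counts than the cytosolic one in each PBS library and fewer in each LRG1 library. The log2 ratio of Acss2 to Acly was -4.17 ± 0.056 with LRG1 and -2.69 ± 0.10 with PBS (SD, n = 3 each), a difference of -1.48 in the balance of transcripts for acetate and citrate use. For Scd2 over Scd1 the difference, LRG1 minus PBS, was -1.30, and for Mlxipl over Srebf1 -0.54. Elovl5 over Elovl6 differed by 0.90 and Fads1 over Fads2 by 0.44, so that in these pairs the second gene had the larger relative decrease. Acsl4 over Acsl1 differed by -0.35. For all 7 pairs the LRG1 libraries did not overlap the PBS libraries. The two-sided exact permutation p was 0.10 (0.10 also adjusted over the 7), the smallest that 3 against 3 libraries allow. No share over other gene pairs was computed. Among single tested genes, LRG1 libraries lay wholly below in 28.6% and wholly above in 29.0%. The count of pairs apart is therefore a description only.

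**Figure D5:**
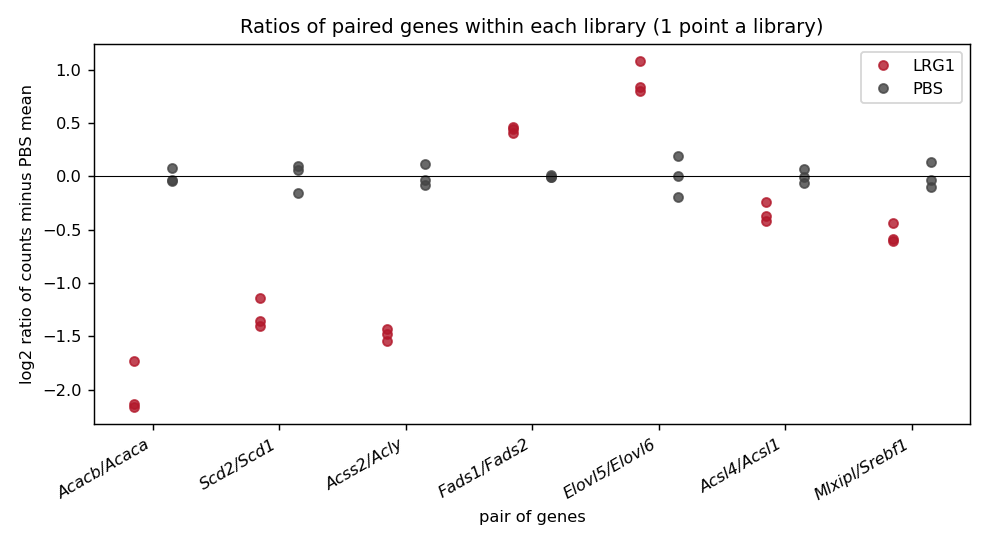
Log2 ratio of the counts of 2 related genes within each library, minus the mean of the PBS libraries, for 7 pairs, with 1 point a library (LRG1 red, PBS dark grey). The LRG1 points of Acacb/Acaca lie furthest from 0, and no pair has overlapping groups.

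Genes that act beside the members were taken from 5 lists chosen by function. The counts of all 5 lists are to be read beside the shares over all tested genes, 25.8% lower and 25.5% higher. Of 17 upstream regulators 8 were lower, 5 were higher and 4 did not pass (median log2 fold change -0.15). Insig2, which holds the SREBP escort protein Scap in the endoplasmic reticulum, averaged 89.0 ± 3.29 CPM with LRG1 and 209.7 ± 4.51 CPM with PBS, 2.36-fold lower (adjusted p = 2.64e-17). Insig1, of the same function, was 1.34-fold lower. Nr1h3, the nuclear receptor LXR alpha that activates Srebf1, was 1.55-fold lower (43.4 ± 0.799 CPM with LRG1, 67.3 ± 3.80 CPM with PBS, SD, n = 3 each), and Prkaa2, a catalytic subunit of the AMP-activated kinase that inactivates acetyl-CoA carboxylase, 1.39-fold lower. Prkaa1, the other catalytic subunit, was 1.26-fold higher (71.7 CPM with LRG1, 56.6 CPM with PBS). The other regulators called higher were Scap, Mbtps2, Nr1h2 and Med15, by 1.10 to 1.23-fold. Genes that supply carbon and NADPH were lower in 7 of 10 cases, with none higher and 3 not past the threshold (median -0.23). Pklr, the liver pyruvate kinase and a ChREBP target, averaged 509.7 ± 13.0 CPM with LRG1 and 790.3 ± 37.9 CPM with PBS, 1.55-fold lower. The NADPH-forming enzymes Idh1 and Pgd were 1.46-fold and 1.30-fold lower, and Mpc1, a subunit of the mitochondrial pyruvate carrier, 1.94-fold lower.

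Of 7 partners in elongation and desaturation, 4 were lower, 2 did not pass and 1 was higher (median -0.25). Cyb5a, the cytochrome that hands electrons to desaturases, averaged 176 ± 5.51 CPM with LRG1 and 399 ± 6.49 CPM with PBS, 2.27-fold lower (SD, n = 3 each). Hacd3, a further dehydratase of the elongation cycle, was 1.53-fold lower and Cyb5b 1.19-fold lower. Hsd17b12, the ketoacyl reductase of the same cycle, was 1.40-fold higher, at 446 ± 10.4 CPM with LRG1 and 318 ± 8.23 CPM with PBS. Of 9 genes of mitochondrial fatty acid synthesis, a separate pathway that makes lipoate precursors, 4 were lower (Cbr4, Oxsm, Acsf3 and Hsd17b8, by 1.10 to 1.31-fold) and 5 did not pass (median -0.18).

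The remaining list, of other acyl-CoA synthetases, thioesterases and acyl-CoA binding protein, held 19 genes, of which 15 were tested. Of those, 8 were lower, 4 did not pass and 3 were higher (median -0.29). It contained differences in both directions that were larger than those of most members. Acsbg1, an acyl-CoA synthetase of the bubblegum family, had 37.2, 34.2 and 35.4 CPM with LRG1 and 1.52, 2.48 and 1.06 CPM with PBS, 21.1-fold higher (log2 fold change 4.40, SE 0.14, adjusted p = 6.03e-18). Slc27a1, a fatty acid transport protein with acyl-CoA synthetase activity, averaged 93.5 ± 0.984 CPM with LRG1 and 35.3 ± 1.71 CPM with PBS, 2.65-fold higher. Slc27a2, its relative, had 14.2, 12.9 and 12.9 CPM with LRG1 and 58.4, 58.1 and 60.0 CPM with PBS, 4.41-fold lower. Acot2, a mitochondrial thioesterase with close paralogs, was 4.99-fold lower. Slc27a4 was 1.26-fold higher, while Slc27a5, Acsf2 and Aacs were 1.22-fold, 1.39-fold and 1.42-fold lower. Acsm2 (5 counts with LRG1, 1 count with PBS) and Acsm4 (1 count with LRG1, none with PBS) were not tested.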

How the data were processed

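Poly(A)-selected, strand-marked libraries of hepatocyte RNA were sequenced from a single end. For each library the authors deposited a table of gene symbols with unnormalized counts of reads. Per the submitters' processing notes these were made with bcl2fastq, TopHat2 and HTSeq on mouse build mm9. The sources used here give no versions, annotation or strand setting. Whether reads were told apart where genes overlap on opposite strands is therefore not known. Reads over 2 counted genes may instead stand in the ambiguous row, and reads that match paralogs equally may be lost. The last 5 rows are HTSeq summary rows and were left out. Uniquely aligned reads lay outside genes in 8.96 to 10.3% of cases and were ambiguous in 0.258 to 0.280%. Non-unique alignments made up 58.2 to 59.3% of the row totals.

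Genes were kept by edgeR's filterByExpr (minimum count 10), scaled by TMM and tested with glmQLFit and glmQLFTest (edgeR 4.0.16, R 4.3.3) with treatment as the sole term. Benjamini-Hochberg adjustment ran over 12301 genes, with a threshold of 0.05. The SE was derived from the F statistic. The pipeline was tested on simulated data. Lengths, overlaps and symbols came from GENCODE M21 and RefSeq (GRCm38), which is not the build of the counts; 98.1% of rows matched. Ratios used counts plus 0.5 and an exact permutation test (scipy 1.17.1). Alternatives were other scalings, filters and tools (DESeq2 1.42.0, limma 3.58.1), a replicate block and leaving out each library. Removal of GC and length trends, and leaving out members with an opposite-strand overlap, were added after seeing the data.

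The members and lists were chosen with earlier results of these data known. All 36 members are named, and up to 4 genes of each further list with the smallest p. Genes named beyond these (the regulators called higher, Slc27a4, Slc27a5, Acsf2, Aacs, Acsm2, Acsm4, the markers and the neighbouring genes) were added after their values were seen. Each library counted as 1 sample. Each pair of replicates was further apart than counting noise (chi-square per degree of freedom 2.89 to 4.15). Such scatter may be technical, so it does not show that the samples were independent.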

Additional observations from a re-analysis of the deposited data

How the results depend on the processing

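Of the 32 tested members, 28 kept their direction and their side of the threshold under all 16 alternatives fitted across genes. The exceptions were Srebf1, Acly and Elovl1, whose values are given above, and Hacd1. Its log2 fold change of -0.060 became 0.019 with GC and length trends removed, and ran from -0.11 to 0.033 when 1 library was left out. Leaving out 1 library, LRG1 replicate 1 being the one that lowered the count, gave 1 to 3 members called higher, against 2. The additional member was Acly or, in fits where it passed the filter, Acsl6, as also with no filter; total gene counts gave 3 through Acly. The count higher was 1 at an adjusted p under 0.01, 0 with a minimum of 1.5-fold in edgeR (0 also at an unadjusted p under 0.05, since Acsl3, the highest tested member, was 1.43-fold higher), and 1 among the members with no exonic overlap with a counted gene on the opposite strand. A minimum of 1.5-fold left 15 members lower, against 27. No share over all tested genes was computed at an adjusted p under 0.01 or at 1.5-fold. At the plain threshold the shares were 25.8% lower and 25.5% higher, and with a 2-fold minimum 5.43% lower and 4.07% higher. Without the 9 overlapped members 22 of 25 tested were lower. Whether libraries of the same replicate number were paired is not known. Their correlations of deviations were -0.12, -0.014 and -0.12, within the -0.12 to 0.14 of all LRG1 and PBS pairs. With 3 libraries a group these values cannot settle it. With a replicate block 27 members were lower and 2 higher. With a count of 5 added before the log, the difference in the Acacb to Acaca ratio was -1.98, against -2.01. Members with few counts (Acss1, Acss3, Elovl3, Elovl4, Acsl6) are limited by depth.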
